A study of Mus musculus with 4 samples.

Results

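The cells described here are the monocytes found in 2 libraries of dorsal root ganglia (DRG), the clusters of sensory neuron cell bodies beside the spinal cord. Barcodes under 200 detected genes, or with more than 20% of UMIs from mitochondrial genes, were set aside. A remaining barcode was counted as a monocyte when at least 3 of the 6 genes Ccr2, F13a1, Vcan, Ms4a4c, Csf1r and Ly6c2 were detected, fewer than 2 of the 3 complement genes C1qa, C1qb and C1qc were detected, and Ebf1, Ly6g, Dcn, Cdh5 and Scn10a had 0 UMIs. This rule found 148 cells, 80 in the 1NMPP1 library and 68 in the vehicle (VEH) library, among 5139 kept barcodes of 6287 in the ganglion libraries and 27654 in the whole series. These 14 genes chose the cells, so their values describe the cells and test nothing.

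All mice of the series carried the same change in a receptor kinase of sensory neurons, which lets the compound 1NMPP1 inhibit that kinase, so the VEH animals carried it too. The study asks what these nerves contribute after an injury of the growth plate (physis). The 1NMPP1 animals were injected intraperitoneally with 17 µg per g body weight of a 5 mM solution 48 h and 2 h before surgery and then drank water with 40 µM 1NMPP1, and the VEH animals received a vehicle with DMSO. At 7 days after injury, lumbar ganglia L1 to L5 of the injured side were dissociated in papain, followed by collagenase type I and dispase II, and the injured growth plate with the tissue around it was digested with collagenase. There was 1 library per tissue and treatment, and the labels give neither the number of animals behind a library nor their age or sex. The difference between the DRG libraries therefore has no replicate check and no test, and p-values of the tests over all 4 libraries measure only the spread between these libraries.

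Monocytes are blood leukocytes made in the bone marrow. Classical monocytes carry much Ly6c and the chemokine receptor Ccr2, enter inflamed tissue, and can turn into macrophages or antigen-presenting cells there. Patrolling monocytes carry little Ly6c, depend on Nr4a1 and crawl along vessel walls. Injured nerves and ganglia are known to attract monocytes, and monocyte products such as Tnf and Il1b are known to act on sensory neurons.

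The libraries held 32791945 UMIs (DRG 1NMPP1), 57303894 (DRG VEH), 139703885 (growth plate 1NMPP1) and 102693014 (growth plate VEH). The 80 monocytes of the DRG 1NMPP1 library had 1185146 UMIs, with 1372, 11504 and 46196 UMIs in the lowest, median and highest cell. The 68 VEH monocytes had 1483873 UMIs, with 1242, 15547 and 69926 UMIs in the lowest, median and highest cell. VEH cells were thus deeper, and shares of cells with a UMI are also given after thinning each cell to 2000 UMIs. Sex-linked transcripts called 23.8% of the 1NMPP1 monocytes male and 65.0% female, against 63.2% male and 25.0% female in VEH, so both libraries held cells of both sexes, in different proportions. Scrublet's own threshold marked too few barcodes to be of use (2 and 0 of the DRG libraries), and removal at 0.8% per 1000 barcodes took 2 and 1 of the monocytes. The libraries shared between 4 and 40 barcodes pairwise, and no monocyte barcode was a monocyte in both DRG libraries.

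The cells carried the markers of classical monocytes, which the rule in part ensures. Ccr2, the receptor that calls monocytes out of the marrow, was detected in 100% of 1NMPP1 and 98.5% of VEH monocytes. Its level was 651 UMIs per 1e+06 UMIs of the summed cells (counts per 1e+06, CPM) in 1NMPP1 and 548 CPM in VEH, while neutrophils of the same libraries had 6.95 and 1.22 CPM and B-lineage cells 0.639 and 0.391 CPM. Ly6c2, the surface antigen that marks the classical kind, stood at 1533 CPM in 1NMPP1 and 1281 CPM in VEH. It was not particular to monocytes, as neutrophils had 669 and 735 CPM, and 33.4% of its 3′ end is shared letter for letter with Ly6c1, Ly6a or a predicted gene, so its counts are uncertain, although Ly6c1 itself had 1 UMI in 1NMPP1 and 0 in VEH monocytes. F13a1, the coagulation factor XIII A chain, had 1145 CPM in 1NMPP1 and 892 CPM in VEH. The growth factor receptor gene Csf1r had 224 and 214 CPM, below the 1199 and 755 CPM of ganglion macrophages. Ms4a4c had 294 CPM in 1NMPP1 and 233 CPM in VEH. Vcan, which encodes the matrix proteoglycan versican, was the rarest marker, with a UMI in 32.5% of 1NMPP1 and 47.1% of VEH cells and levels of 76.8 and 227 CPM.

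**Figure D1:**
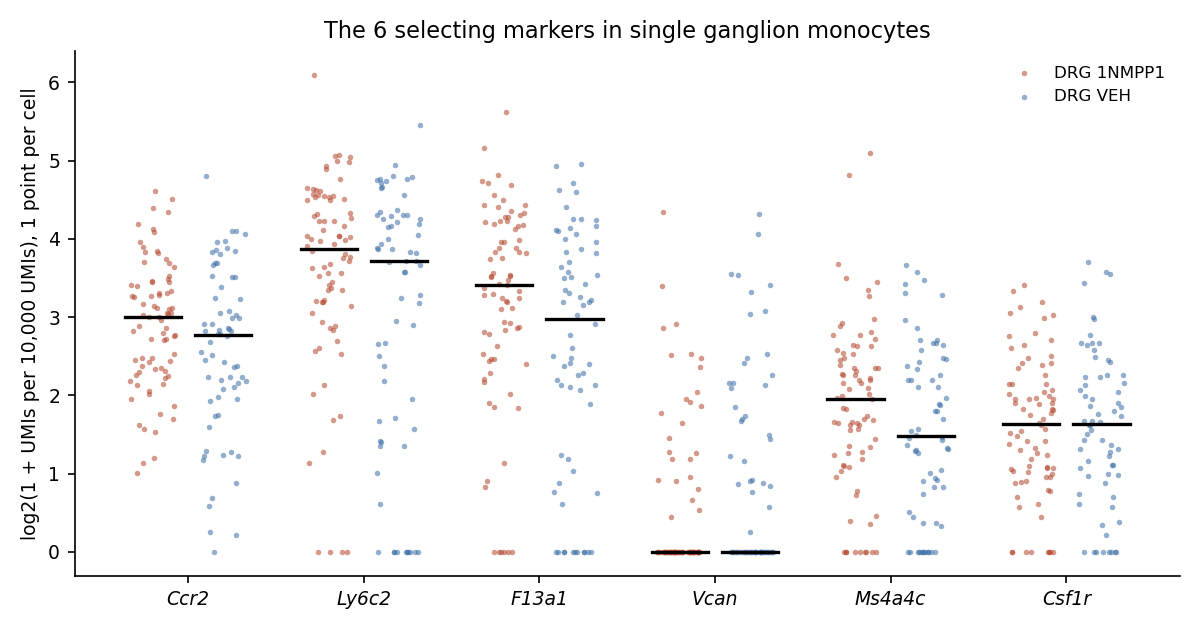
Level of each selecting marker in every ganglion monocyte, as log2 of 1 plus UMIs per 10,000 UMIs of the cell. Each point is a cell, with 80 from the 1NMPP1 library in red on the left and 68 from VEH in blue on the right of each gene, and bars are medians. Ccr2, Ly6c2 and F13a1 are detected in most cells of both libraries, and the median of Vcan is at 0 in both.

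Most cells cleared the rule with room. In 1NMPP1, 6, 11, 41 and 22 cells carried 3, 4, 5 and 6 of the markers, and in VEH 12, 12, 18 and 26 cells did. Just outside, 24 barcodes in 1NMPP1 and 29 in VEH met every other limit with 2 markers, 5 and 10 had 2 or 3 of the C1q genes, and 27 and 36 had the markers but also a UMI of a gene required at 0.

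Transcripts of other cell types were present at low levels, some held by a few cells and others spread widely. The 13 neutrophil markers summed to 1226 CPM in 1NMPP1 and 1373 CPM in VEH monocytes, against 387328 and 399776 CPM in the neutrophils themselves. Of those UMIs, 74.4% in 1NMPP1 and 67.3% in VEH lay in 3 cells. Markers of myelinating Schwann cells summed to 640 CPM in 1NMPP1, 76.0% of it in 3 cells, and to 140 CPM in VEH, 29.8% of it in 3 cells. Neuron markers summed to 61.6 CPM in 1NMPP1 and 169 CPM in VEH, spread over 53.8% and 92.6% of cells. Satellite glia markers summed to 104 and 44.5 CPM, erythroid markers to 317 and 307 CPM over 96.3% and 98.5% of cells, T and NK markers to 21.1 and 53.2 CPM, all of them in 3 cells or fewer per library, and B-lineage markers to 18.6 and 27.0 CPM over 20.0% and 35.3% of cells. The C1q macrophage markers summed to 36.3 and 22.9 CPM, fibroblast markers to 28.7 and 18.9 CPM and endothelial markers to 23.6 and 14.8 CPM, while platelet markers had 0 and 1 UMI. Their part in the results was not tested beyond the values without the cells richest in them, which are given beside the results they move.

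Monocytes made up 3.63% of kept barcodes in the 1NMPP1 ganglia (95% Clopper-Pearson interval 2.89% to 4.50%) and 2.31% in VEH (1.80% to 2.93%). The log2 ratio of 0.65 had a counting interval of 0.17 to 1.14. Among barcodes with a UMI of the leukocyte gene Ptprc the shares were 8.15% in 1NMPP1 and 7.42% in VEH (log2 ratio 0.13, interval -0.35 to 0.62), and among monocytes, macrophages, neutrophils and B-lineage cells together 12.5% and 11.5% (0.12, -0.36 to 0.61). The gap in the share of all cells was thus not seen among blood cells. In the growth plate the same rule found 1012 cells in 1NMPP1 (8.70%) and 888 in VEH (9.47%). Intervals here and throughout cover counting error only, not the spread between animals.

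The ganglion monocytes were a mixture of recognisable states, described here with limits chosen after their values were seen. Cycling cells, with UMIs of at least 2 of 9 mitosis genes such as Mki67 and Top2a, were 33 of 80 in 1NMPP1 (41.3%, interval 30.4% to 52.8%) and 30 of 68 in VEH (44.1%, 32.1% to 56.7%). Neutrophils of the same libraries, most of which no longer divide, gave 8.47% and 12.6% by the same count. Their median depth was 6893 and 10861 UMIs, below that of the monocytes, and their share after thinning was not measured. Cycling cells were deeper than the others, with medians of 20507 against 9686 UMIs in 1NMPP1 and 31273.5 against 13817 UMIs in VEH, and after thinning the shares were 22.8% and 25.4%. In the growth plate the thinned shares were 32.1% in 1NMPP1 and 38.0% in VEH.

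Progenitor-like cells, with 10 or more UMIs of the granule genes Mpo, Elane, Prtn3, Ctsg and Ms4a3, were 13 of 80 in 1NMPP1 (16.3%, 8.95% to 26.2%) and 17 of 68 in VEH (25.0%, 15.3% to 37.0%). No B-lineage cell of the ganglia reached this count, but these cells were shallower, with medians of 4396.5 UMIs in 1NMPP1 and 6218 in VEH. After thinning, with 2 such UMIs in place of 10, the shares were 17.7% in 1NMPP1 and 20.9% in VEH. Of these cells, 13 of 13 in 1NMPP1 and 16 of 17 in VEH also counted as cycling. Mpo, the myeloperoxidase gene that early granule-making precursors transcribe, is among the genes that define this state. Its contrast between states therefore follows from the choice and tests nothing. It had 1739.9 CPM in progenitor-like cells of 1NMPP1 and 1266 CPM in those of VEH, and at most 6.49 CPM in any other state. The same cells had low levels of Fn1 (fibronectin), 297 CPM in 1NMPP1 and 398 CPM in VEH, against 3042 and 1801 CPM in the other cycling cells. They also had less of the lysozyme gene Lyz2, 5814 and 5577 CPM, than the cells in no named state, 21331 and 27787 CPM. Cells with the transcripts of marrow precursors were thus part of the monocytes in both ganglion libraries.

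Antigen-presenting cells, with 10 or more UMIs of H2-Aa, H2-Ab1 and H2-Eb1, were 8 of 80 in 1NMPP1 (10.0%, 4.42% to 18.8%) and 13 of 68 in VEH (19.1%, 10.6% to 30.5%). No neutrophil of the ganglia, at the lower depth given above, reached this count. For levels by state each cell was put once into the first state that took it, in the order progenitor-like, other cycling, antigen-presenting and patrolling, which left 7 antigen-presenting cells in 1NMPP1 and 12 in VEH, some of them also patrolling by the count below. These had low Ly6c2, at 443 CPM in 1NMPP1 and 239 CPM in VEH. Cd209a, a lectin gene known from monocyte-derived dendritic cells, came from few of them, with 22 of its 29 UMIs in 1 cell in 1NMPP1 and all 27 in 2 cells in VEH. Flt3, a receptor gene known from other dendritic cells, had 6 UMIs in these cells of 1NMPP1 and 10 in those of VEH. That was 71.9 and 58.2 CPM, against at most 38.4 CPM in any other state. No gene of the rule sets such dendritic cells apart, and whether some of these cells belong to them was not tested. Cells with at least 2 of 6 patrolling genes were 22.5% in 1NMPP1 and 35.3% in VEH, but 57 and 36 cells lay near that limit, and after thinning the shares were 3.8% and 8.96%. None of the 4 states took 29 cells in 1NMPP1 and 12 in VEH. For each state the intervals of the 2 libraries overlapped.

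**Figure D2:**
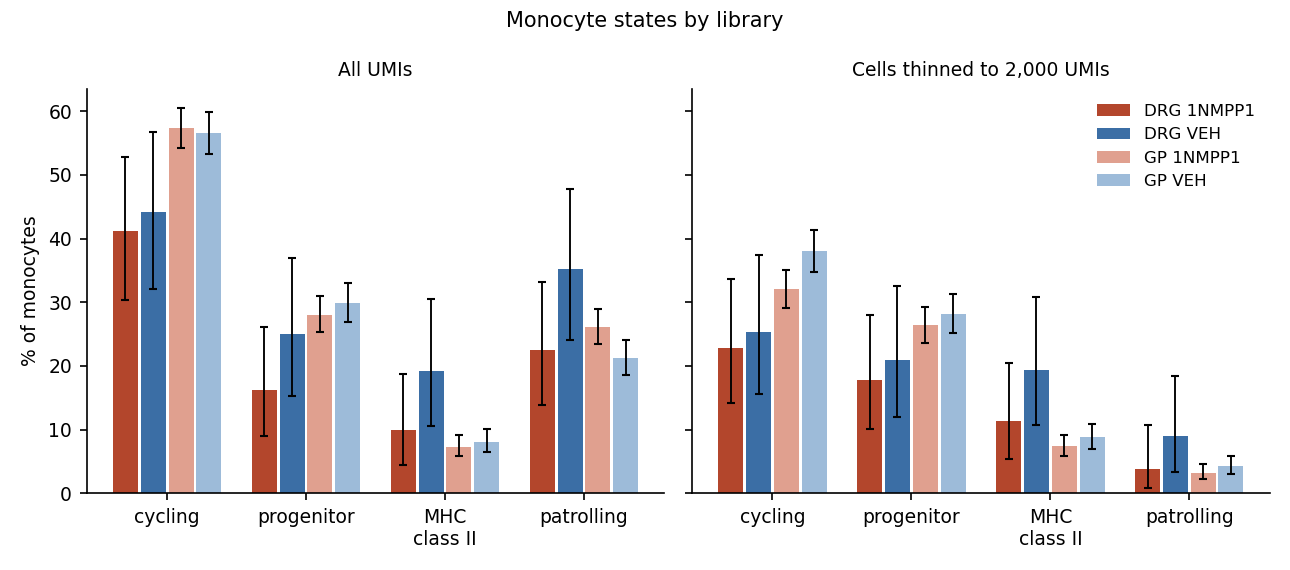
Percent of monocytes in each of 4 states, with all UMIs on the left and after thinning each cell to 2000 UMIs on the right. Bars run from DRG 1NMPP1 and DRG VEH to growth plate (GP) 1NMPP1 and VEH, error bars are 95% Clopper-Pearson intervals for counting error, and a cell can be in more than 1 state. The DRG intervals overlap in every state, and the cycling share falls after thinning in all 4 libraries, to 22.8% and 25.4% in the DRG.

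For gene levels the UMIs of all monocytes of a library were summed. Among 8046 genes with at least 30 UMIs over both DRG libraries, 507 (6.3%) differed at least 2-fold between 1NMPP1 and VEH monocytes, 311 (3.87%) being higher in 1NMPP1 and 196 (2.44%) lower. The median log2 ratio over all these genes was 0.08, and 4709 of the 8046 were higher in 1NMPP1 by any amount, against which the counts of list members below are to be read. Of the 507 genes, 286 (56.4%) had the same direction in growth plate monocytes, against 54.6% of all genes measured, and 9 were past 2-fold there too.

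Inflammatory genes were lower in 1NMPP1 monocytes. Of the 15 measured members of the list, which holds cytokines and the genes that the transcription factor NF-kB switches on, 14 were lower in 1NMPP1 and 8 of them at least 2-fold, with a median log2 ratio of -1.08. In growth plate monocytes the median was 0.18, and no member had the direction it had in the DRG. In ganglion macrophages the list's median was 0.30 and in ganglion neutrophils 0.20. Single genes differed there, with Tnf at -0.16 in macrophages and 0.40 in neutrophils and Nfkbia at 0.06 and -0.21. Some genes described below were lower in macrophages too, Cxcl2 at -0.86 (-0.73 in neutrophils), Sqstm1 at -0.93, Tnip3 at -2.54 and Cxcl10 at -2.59, and Traf1 had 0 UMIs in 1NMPP1 and 33 in VEH macrophages. The list's median was -0.33 among female-called and -1.36 among male-called monocytes, -0.46 without cycling cells and -0.92 without the top cell of each library for each gene. In each of these settings it was below 0, but its size moved by over 1.5 times among female-called cells and without cycling cells, and libraries that differ in animals and in sex cannot be told apart from treatment here.

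Tnf, the cytokine that gives the family its name, had 40 UMIs in 1NMPP1 and 275 UMIs in VEH monocytes, or 33.8 and 185 CPM. The log2 ratio was -2.44 (-2.97 to -1.97). It was detected in 26.3% of 1NMPP1 and 45.6% of VEH cells, and in 3.8% and 25.4% after thinning, against 0.375% and 0% of thinned B-lineage cells. Cxcl2, a neutrophil-attracting chemokine that is counted in the chemokine list, had 249 UMIs in 1NMPP1 and 1651 UMIs in VEH, or 210.1 and 1113 CPM, a log2 ratio of -2.40 (-2.60 to -2.21). A single VEH cell held 528 of its UMIs, and without the top cell of each library the ratio was -2.29. Nfkbia, whose protein holds NF-kB in the cytoplasm and which NF-kB itself induces, had 231 UMIs in 1NMPP1 and 1139 UMIs in VEH, or 195 and 768 CPM, a log2 ratio of -1.98 (-2.19 to -1.77). Its share of thinned cells was 19.0% (11% to 29.4%) in 1NMPP1 and 44.8% (32.6% to 57.4%) in VEH, while B-lineage cells, which also express it, had 44.9% and 41.5%. Sod2, the mitochondrial superoxide dismutase, had 132 UMIs in 1NMPP1 and 503 UMIs in VEH, a log2 ratio of -1.60.

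The other members of the inflammatory list were lower too, apart from Osm, some by more and most by less. Il6 had 39 UMIs in 1NMPP1 and 122 in VEH, and Il1a had 2 and 26. Nfkbiz, another member of the inhibitor family, was at -1.08 on the log2 scale, Tnfaip3, an enzyme that damps NF-kB, at -0.79, Socs3 at -0.69 and Il1b at -0.59, with 897 CPM of Il1b in 1NMPP1 and 1353 CPM in VEH. Ptgs2 stood at -0.55 and the inflammasome sensor Nlrp3 at -0.13, with an interval of -0.33 to 0.08. Acod1, which makes the metabolite itaconate in activated phagocytes, had 0 UMIs in 1NMPP1 and 72 in VEH, at least 19.2-fold lower in 1NMPP1 when 3 UMIs are taken as its limit there. The restraining cytokine genes Il10 and Il1rn were lower too, with 6 against 30 UMIs and 17 against 58 UMIs in 1NMPP1 against VEH, although Il1rn stood at -0.22 without the top cell of each library. Osm, the cytokine oncostatin M, was the member that was higher, with 488 CPM in 1NMPP1 and 275 CPM in VEH (log2 ratio 0.83).

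The gap came from part of the cells. To describe this, Nfkbia, Cxcl2, Tnf and Sod2 were summed per cell. They were picked from genes lower in 1NMPP1, so a lower sum there follows from the choice and tests nothing. The sum had a median of 2.57 UMIs per 10000 in 1NMPP1 (quartiles 1.09 and 5.43) and 5.35 in VEH (1.65 and 20.8). Cells above 20 UMIs per 10000 numbered 6 of 80 in 1NMPP1 and 18 of 68 in VEH, and the highest cells reached 120 and 257. The 5 highest cells held 41.4% of these UMIs in 1NMPP1 and 50.1% in VEH. For Nfkbia the gap was present in most states. It had 90.9 CPM in progenitor-like cells of 1NMPP1 and 622 CPM in those of VEH. The other cycling cells had 156 and 1010 CPM, and antigen-presenting cells 335 and 1083 CPM. Patrolling cells were the exception, with 507 CPM in 1NMPP1 (47 UMIs in 11 cells) and 338 CPM in VEH (63 UMIs in 13 cells). Il1b had no such gap in progenitor-like cells, with 288 CPM in 1NMPP1 and 265 CPM in VEH. In cells of no named state Il1b had 1214 and 1246 CPM. It was lower in 1NMPP1 in the other cycling, antigen-presenting and patrolling cells. Tnf was at 29.5 CPM in progenitor-like cells of 1NMPP1 and at 242 CPM in those of VEH, and these VEH cells held 153 of the library's 275 Tnf UMIs.

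**Figure D3:**
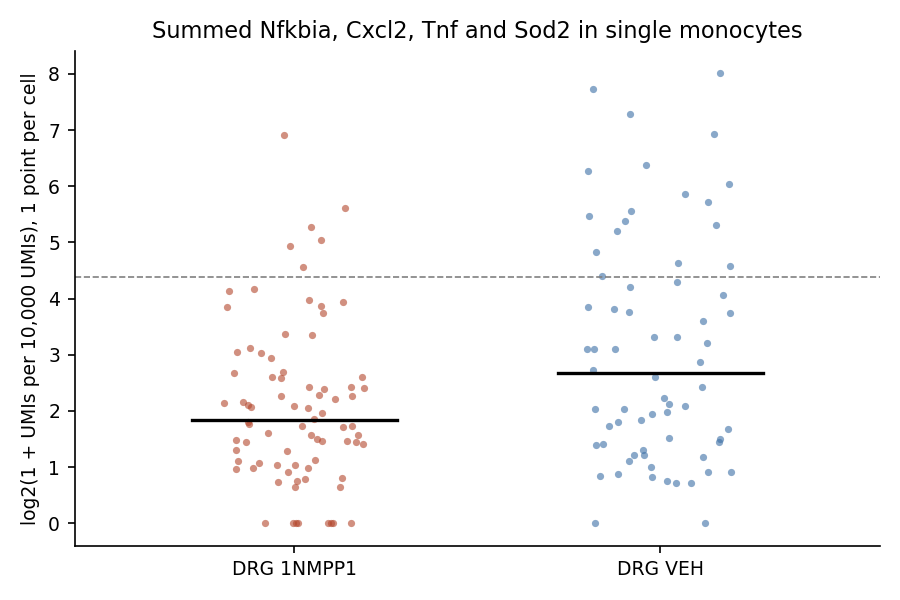
Summed level of Nfkbia, Cxcl2, Tnf and Sod2 in each ganglion monocyte, as log2 of 1 plus UMIs per 10,000 UMIs. The genes were picked from those lower in 1NMPP1, so the gap describes the cells and tests nothing. Each point is a cell, black bars are medians, and the dashed line stands at 20 UMIs per 10,000, which 6 of 80 cells in 1NMPP1 and 18 of 68 cells in VEH exceed.

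Interferon response genes were higher in 1NMPP1 monocytes. Of 19 measured members 17 were higher and 9 of them at least 2-fold, with a median log2 ratio of 0.83, and 17 had the same direction in growth plate monocytes, where the median was 0.54. Medians were also above 0 in ganglion macrophages (0.51) and neutrophils (0.60). Among female-called and male-called DRG monocytes alone the median was 0.43 and 0.14. Growth plate monocytes had the same imbalance of sex calls as those of the DRG. They were 32.9% male and 51.9% female in 1NMPP1, against 63.3% male and 17.3% female in VEH. A shared direction in both tissues therefore cannot tell treatment apart from sex. Oas3, an enzyme that senses double-stranded RNA, had 63 UMIs in 1NMPP1 and 20 in VEH (log2 ratio 1.96, 1.23 to 2.78) and was detected in 41.3% and 20.6% of cells, or 12.7% and 1.49% after thinning. Its growth plate ratio was 0.64. Ifit3 had 30 UMIs in 1NMPP1 and 7 in VEH, a ratio of 2.35, and Usp18, which restrains the interferon receptor, was at 1.96. Isg15, a ubiquitin-like protein gene, had 147 and 70 UMIs (1.39), of which 56 came from a single 1NMPP1 cell, and stood at 1.06 without the top cells and at -0.16 among male-called cells. The regulator Irf7 was at 1.06, and Ifi27l2a had 1504 CPM in 1NMPP1 and 849.8 CPM in VEH (0.82).

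Cxcl10, a T cell chemokine that both interferon and NF-kB induce, went against its list, with 19 UMIs in 1NMPP1 and 283 in VEH, a log2 ratio of -3.54 (-4.33 to -2.90). It was detected in 10.0% of 1NMPP1 cells and 29.4% of VEH cells. With the same cells thinned to 2000 UMIs it was detected in 2.53% of 1NMPP1 and 10.4% of VEH cells. When barcodes were thinned first and chosen afterwards, which changed the cells as well as the depth, the ratio was 0.88.

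**Figure D4:**
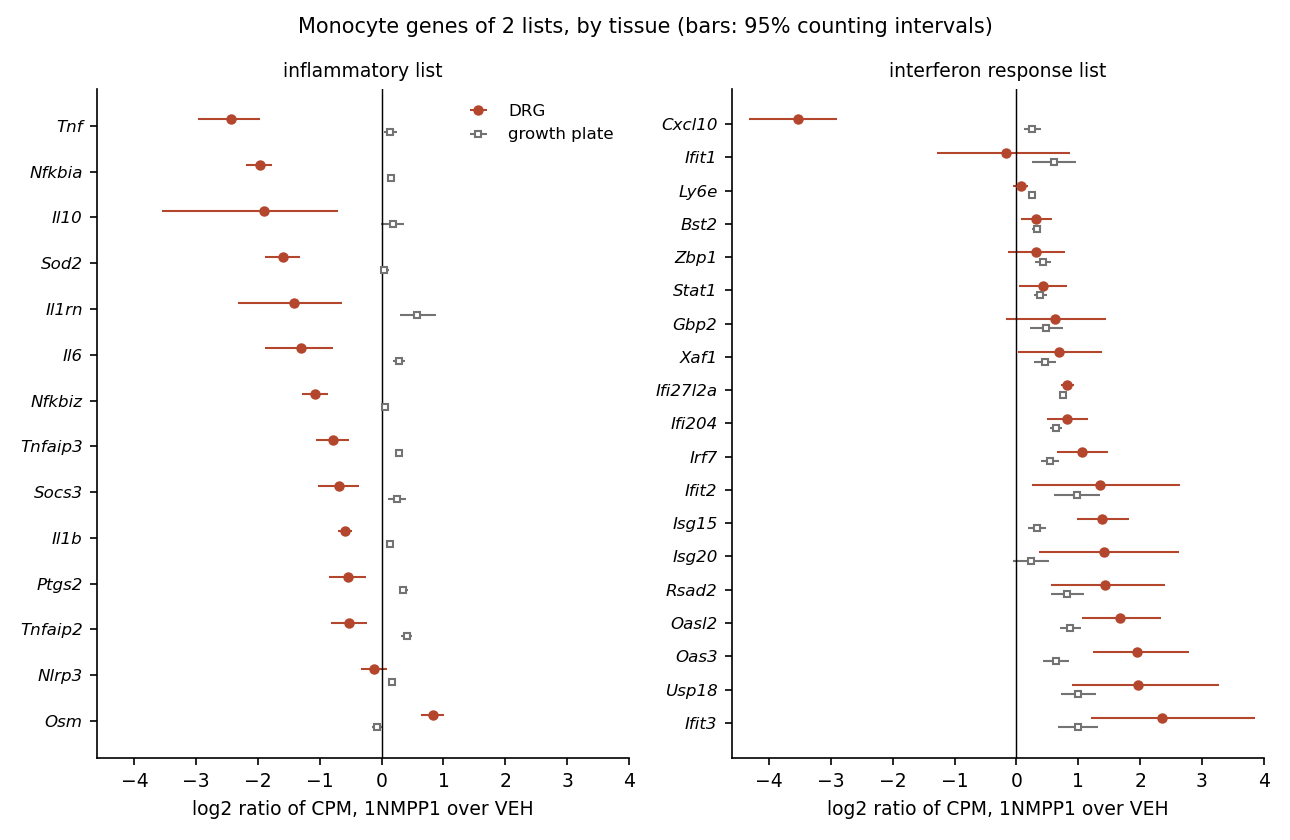
Log2 ratio of CPM, 1NMPP1 over VEH, for the measured members of the inflammatory list on the left and the interferon response list on the right. Filled red circles are DRG monocytes, open grey squares growth plate monocytes, and bars are 95% counting intervals. Inflammatory genes other than Osm lie below 0 in the DRG and near or above 0 in the growth plate, 17 of 19 interferon genes lie above 0 in the DRG, and Acod1, at 0 UMIs in DRG 1NMPP1, is not drawn, nor are genes under 30 UMIs.

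To show what lies before these genes, the 250 bases upstream of their starts were read from the RefSeq promoter table (GRCm38.p6, the assembly behind mm10) and searched on both strands for letters of the interferon-sensitive response element, GAAA, 2 bases of any kind and GAAA again, and of the NF-kB motif. Of the interferon list 13 of 19 measured genes were in the table, and 8 of these (61.5%) held the first motif, against 3.04% of 27025 genes. Of the inflammatory list 12 of 15 were in the table, and none held it. The NF-kB motif was searched in 2 spellings. The first, GGG, 2 bases of any kind and TTCC, was found in 2 of the 12 inflammatory genes (16.7%), in 3 of the 13 interferon genes (23.1%) and in 4.88% of all genes. The second, with TTTCC in place of TTCC, was added after those counts had been seen. It was found in 3 of the 12 inflammatory genes (25.0%), in none of the 13 interferon genes and in 1.40% of all genes. With the first spelling the motif was thus no more frequent in the inflammatory list than in the interferon list, so the split between the lists rests on the spelling chosen afterwards, and no reading is placed on it. A match is a description of letters, and a gene without one can still carry another form of the site. The upstream sequences of 5 genes described above are shown because they hold a match, given in capitals. The first 3 show the interferon motif and the others the second spelling of the NF-kB motif. In Isg15 the 3 matches overlap.

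Ifit3 (chr19:34583279-34583528, plus strand): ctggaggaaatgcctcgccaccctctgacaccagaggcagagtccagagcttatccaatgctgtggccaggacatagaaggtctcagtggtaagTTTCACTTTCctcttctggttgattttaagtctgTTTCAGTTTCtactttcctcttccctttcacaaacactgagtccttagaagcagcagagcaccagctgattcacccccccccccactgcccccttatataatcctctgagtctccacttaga
Isg15 (chr4:156200819-156201068, minus strand): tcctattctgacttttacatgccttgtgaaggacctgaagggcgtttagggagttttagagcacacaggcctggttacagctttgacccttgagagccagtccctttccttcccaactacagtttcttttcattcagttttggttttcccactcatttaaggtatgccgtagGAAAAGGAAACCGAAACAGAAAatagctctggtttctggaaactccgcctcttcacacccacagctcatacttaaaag
Oas3 (chr5:120777660-120777909, minus strand): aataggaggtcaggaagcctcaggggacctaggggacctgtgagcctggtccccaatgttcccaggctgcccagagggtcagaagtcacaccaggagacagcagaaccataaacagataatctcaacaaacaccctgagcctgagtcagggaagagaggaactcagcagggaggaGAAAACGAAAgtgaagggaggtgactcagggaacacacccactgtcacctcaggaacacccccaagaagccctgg
Nfkbia (chr12:55492648-55492897, minus strand): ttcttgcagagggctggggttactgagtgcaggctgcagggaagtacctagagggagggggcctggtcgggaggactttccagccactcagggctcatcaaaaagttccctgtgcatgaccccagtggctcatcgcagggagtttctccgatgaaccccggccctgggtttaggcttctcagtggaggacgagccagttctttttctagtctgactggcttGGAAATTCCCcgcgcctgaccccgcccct
Il6 (chr5:30012864-30013113, plus strand): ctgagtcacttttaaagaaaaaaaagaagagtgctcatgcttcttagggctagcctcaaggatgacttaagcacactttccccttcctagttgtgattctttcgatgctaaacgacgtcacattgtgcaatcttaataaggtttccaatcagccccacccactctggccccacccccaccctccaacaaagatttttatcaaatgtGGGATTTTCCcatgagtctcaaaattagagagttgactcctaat

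Chemokine genes did not move as one group, with 5 of 10 measured members higher and 5 lower in 1NMPP1, and 1 and 3 of them past 2-fold. Ccl2, the main ligand of Ccr2, had 665 CPM in 1NMPP1 and 554 CPM in VEH, a log2 ratio of 0.26, and its UMIs reached 139 and 347 in single cells. The inflammatory chemokine genes Ccl3 and Ccl4 were at 0.84 and 0.83, with 472 and 821 CPM in 1NMPP1 and 263 and 461 CPM in VEH. Cxcl16 had 7 UMIs in 1NMPP1 and 56 in VEH, and Ccl7 had 31 and 2. Among 9 measured chemoattractant receptors the median was -0.02. Cxcr4, which holds cells in the marrow, was at 0.83 and the semaphorin receptor gene Plxnd1 at 1.20, while the complement receptor gene C5ar1 was at -1.10.

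Genes of MHC class II and dendritic cells were lower in 1NMPP1, in 11 of 16 measured members and by at least 2-fold in 5, with a median log2 ratio of -0.72 and 0.09 in the growth plate. H2-Aa, an antigen-presenting chain, had 348 UMIs in 1NMPP1 and 1260 UMIs in VEH (-1.53). H2-Ab1 was at -1.45, H2-Eb1 at -1.60 and Cd74, the invariant chain, at -1.07, with 1070.0 CPM in 1NMPP1 and 2252 CPM in VEH. H2-Aa was detected in 18.8% of 1NMPP1 and 25.0% of VEH cells, and single cells held up to 124 and 283 of its UMIs. When barcodes were thinned before cells were chosen, which changed both cells and depth, the list's median turned to 0.17, as did Cd74. With the same cells thinned, Cd74 was detected in 34.2% of 1NMPP1 and 40.3% of VEH cells.

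Patrolling genes were lower in 9 of 13 measured members, 4 of them at least 2-fold, with a median of -0.53 and 0.03 in the growth plate. Cd36, a scavenger receptor gene, had 9 UMIs in 1NMPP1 and 73 in VEH (-2.63). Of its VEH UMIs 86.3% lay in 3 cells, and without the top cell of each library its ratio was -2.24. Its level was 4.41% of that in ganglion macrophages. Treml4 had 12 and 38 UMIs (-1.30) and Ace 26 and 59 (-0.84), and the fractalkine receptor gene Cx3cr1 was at -0.53. Nr4a1, on which patrolling cells depend but which is also an early response gene, was at 0.86 instead. Among female-called cells the list's median was 0.02. Classical genes showed no gap of such size, with 15 of 19 higher, none past 2-fold and a median of 0.23. Fn1 was at 0.73, Lyz2 at 0.24 and Cd14 at -0.53.

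Receptors and programmes of tissue entry differed less. Of 14 adhesion genes 7 were higher and 7 lower, with a median of 0.00 and Icam1, an integrin ligand that NF-kB induces, at -1.05. Icam1 stood at 0.06 without cycling cells and at 0.33 in cells chosen after thinning, while the same cells thinned gave 8.86% with a UMI in 1NMPP1 and 11.9% in VEH. Of 16 pattern and Fc receptor genes 10 were higher, with a median of 0.20, and 3 were at least 2-fold lower: Cd36 and the lectin genes Clec4e (-1.07) and Clec4d (-1.34). Cytokine receptor genes had a median of 0.20, with 10 of 16 higher and Tnfrsf1a, the main Tnf receptor, at 0.82. Macrophage differentiation genes had a median of 0.23 (8 of 13 higher), coagulation and repair genes 0.17 (9 of 11 higher) and glycolysis genes -0.03 (5 of 14 higher), with the hexokinase gene Hk3 at 1.30. The progenitor list was at -0.12 (4 of 13 higher) and the cell cycle list at 0.09 (10 of 18 higher). All 16 immediate early and stress genes were higher in 1NMPP1, none of them 2-fold, led by Btg2 (0.98), Hspa1b (0.92) and Egr1 (0.73). Their median was 0.42, against 0.26 in the growth plate. This was not particular to monocytes. The list's median was 0.87 in ganglion macrophages, with 0 of 16 lower, and 0.25 in ganglion neutrophils, with 4 of 16 lower.

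Of 20 genes in the list of nerve ligands and neuropeptide receptors, 8 were measured. Tnf and Il1b, which are known to act on sensory neurons, and the list member Osm are given above. The neurotrophic ligand genes Gdnf, Artn and Igf1 had 0 UMIs in both libraries, as did the substance P receptor gene Tacr1, Npy1r and Sstr4, and Bdnf had 0 UMIs in 1NMPP1 and 2 in VEH. A count of 0 allows up to 3 UMIs. Ramp1, a subunit of the receptor for the sensory neuropeptide CGRP, was common, with 232 CPM in 1NMPP1 and 193 CPM in VEH and a UMI in 72.5% and 80.9% of cells, against 6.16% and 12.5% of B-lineage cells. Its partner Calcrl had 26 UMIs in 1NMPP1 and 52 in VEH. The guidance genes Sema4d and Nrp1 had 167 against 188 and 101 against 146 UMIs in 1NMPP1 against VEH. Of the 8 measured members of this list 4 were higher and 4 lower, Nrp2 (-1.28) being the only one past 2-fold.

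A rule of size named the 12 highest and 12 lowest genes with at least 60 UMIs. Highest in 1NMPP1 were Vps26c, an endosomal sorting gene (2.08), Tmem229b (1.99), Oas3, the histone gene Hist3h2a (1.74), Oasl2 (1.67), Tmco4 (1.65), the vesicle fusion gene Vamp2 (1.64), Itprip (1.56), Pcnx3 (1.55), Tmem268 (1.52), the secretory GTPase gene Rab3d (1.51) and Rin2, an activator of Rab5 (1.42). Vps26c and Tmco4 owe this to single cells and stood at 1.21 and 0.65 without the top cell of each library. Rin2 was broad, with a UMI in 66.3% of 1NMPP1 and 39.7% of VEH cells. Apart from Oas3 and Oasl2 these genes had growth plate ratios between -0.25 and 0.35.

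Lowest in 1NMPP1 were Mir155hg (-2.86), the host transcript of the microRNA miR-155, Tnip3 (-2.12) and Tnip1 (-2.02), whose proteins bind the Tnfaip3 protein, and Traf1 (-1.69), an adaptor of Tnf receptors, together with the genes that follow. For Tnip3 73.0% and for Mir155hg 69.8% of the VEH UMIs lay in 3 cells. Sqstm1, the autophagy receptor p62, had 70 UMIs in 1NMPP1 and 371 in VEH (-2.07) and was detected in 46.3% and 77.9% of cells. Saa3, an acute phase gene, had 0 UMIs in 1NMPP1 and 332 in VEH, at least 88.4-fold lower in 1NMPP1 at a limit of 3 UMIs, but came from 13.2% of VEH cells, 133 of the UMIs from a single one. Gbp5 (-1.95) and Jak2 (-1.83) also leaned on single VEH cells and stood at -0.51 and -1.20 without the top cells, and Gbp5 turned to 3.0 without cycling cells. Hist1h2ab (-2.16) shares 58.0% of its 3′ end with other histone genes and is uncertain. Tnf, Cxcl2 and Nfkbia completed the 12.

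Ganglion monocytes were then tested against the growth plate monocytes chosen by the same rule, with treatment as a term. Of 6461 genes 225 (3.48%) passed edgeR's quasi-likelihood test at an adjusted p under 0.05, with 172 (2.66%) higher in the DRG and 53 (0.82%) lower. Tissue, its digestion and the way each library was made cannot be told apart here. Fits that left out a library also dropped the treatment term and left 1 library in a tissue, so their counts are not read. Their spread came only from the pair left whole. Between treatments, 507 of 8046 genes were past 2-fold in the DRG pair and 62 in the growth plate pair. In each of these fits every named gene with a value kept its direction. Genes named by rule had to share a direction in both library pairs, so for them this is no separate support. With all 4 libraries kept but the treatment term dropped, 24 of the named genes lost the call and 16 did not change.

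Immediate early genes were higher in the DRG throughout, with 16 of 16 tested members past the threshold and a median log2 fold change of 1.52. Jun had 1477 and 1113 CPM in DRG 1NMPP1 and VEH monocytes, against 207 and 204 CPM in growth plate monocytes (log2 fold change 2.70, edgeR adjusted p = 2.42e-05). Egr1 was at 2.61 (edgeR adjusted p = 2.21e-05), Klf2 at 2.12, Jund at 2.03, Atf3 at 1.96 and Fos at 0.83 (edgeR adjusted p = 0.0174). The DRG values of each of these genes lay above both growth plate values. Neutrophils of the same libraries had list medians of 0.84 in the 1NMPP1 pair and 0.96 in the VEH pair, and B-lineage cells 1.13 and 0.45. Egr1 went against this in neutrophils, at -0.97 in the 1NMPP1 pair and -1.20 in the VEH pair, and stood at 1.20 and -0.13 in B-lineage cells.

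Chemokine genes were next, with 3 of 8 tested members higher in the DRG. Ccl2 had 665 and 554 CPM in DRG 1NMPP1 and VEH, against 95.5 and 83.7 CPM in the growth plate (2.82, edgeR adjusted p = 1.34e-05). Ccl4 was at 2.34 and Ccl3 at 1.25. Of 14 inflammatory genes 3 were higher, Osm (1.58), Socs3 (1.57) and Il1b (1.00). Of 11 MHC class II and dendritic genes the 4 core members were higher, H2-Eb1 (1.76), H2-Aa (1.64), H2-Ab1 (1.63) and Cd74 (1.56, edgeR adjusted p = 0.00748). Of 11 macrophage differentiation genes 4 were higher, among them the lipid carrier gene Apoe (1.58), Lgmn (1.14) and Cd68 (0.79), and Cd63 was lower (-1.33).

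Smaller counts came from the other lists. Cytokine receptor genes were higher in 3 of 16, Il4ra (1.14), Csf2rb (0.87) and Il10ra (0.71), coagulation and repair genes in 2 of 10, Thbs1 (1.25) and Plaur (0.82), and nerve-related genes in 2 of 8, among them Osm. Patrolling genes were higher in 2 of 9, Ace (1.70) and Adgre4 (1.03), and lower in 1, Pglyrp1 (-1.55). Single members were higher among chemoattractant receptors (Ccr1, 1.08, of 8), classical genes (Cebpb, 1.14, of 19) and pattern receptors (Tlr7, 1.15, of 14). No interferon (of 12), adhesion (of 13) or glycolysis gene (of 14) passed. Outside the lists Hes1, a target of Notch signalling, was at 2.87, Rhob at 2.40 and Ccdc162 at 2.20 from 3.75% and 5.88% of cells. Hist3h2a was at 1.93 and Yae1d1 at 1.76. For Yae1d1 3 cells held 73.7% of the UMIs in DRG 1NMPP1, and 3 cells held 73.5% in DRG VEH. Retnla passed on 98 UMIs of a single 1NMPP1 cell.

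Progenitor genes were lower in the DRG in 7 of 13 tested members, with a median of -0.67. Nkg7 was at -2.34, Ms4a3 at -1.99 (edgeR adjusted p = 0.000344), the neutrophil elastase gene Elane at -1.38, the progenitor transcription factor gene Myb at -1.25, Ctsg at -0.84, Prtn3 at -0.73 and Mpo at -0.67 (edgeR adjusted p = 0.0403). Markers of other marrow cells were lower as well, neutrophil markers in 8 of 10 (median -2.91) and erythroid markers in 4 of 4 (median -2.23). The neutrophil list summed to 1226 and 1373 CPM in DRG monocytes, against 10790 and 10280 CPM in growth plate monocytes. Leaving out cells with 20 or more UMIs of the neutrophil, C1q macrophage, T and NK, satellite glia, Schwann, endothelial or fibroblast markers, an alternative chosen after seeing the data, kept 37 of 1012 and 70 of 888 growth plate cells (0.547% and 2.25% of their UMIs), and Mpo turned to 1.64, Elane to 1.02, Ctsg to 1.44 and Prtn3 to 1.21. In the DRG the rule kept 80 and 68 cells and set aside 27 and 36 barcodes that had the markers but also a UMI of a gene required at 0. In the growth plate it kept 1012 and 888 and set aside 743 and 376, mostly for Ebf1 or Ly6g.

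Of 18 cell cycle genes 2 were lower in the DRG, Cenpf (-0.95) and Ube2c (-0.60). Further genes lower in the DRG were Mcmdc2 (-2.49), Cnnm2 (-1.28), Dnah8 (-1.26), the linker histone gene Hist1h1b (-1.25), Hmmr (-1.07), Tmx4 (-0.90, but 0.31 without cycling cells), Nr4a3 (-0.89) and Mgat5 (-0.87).

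**Figure D5:**
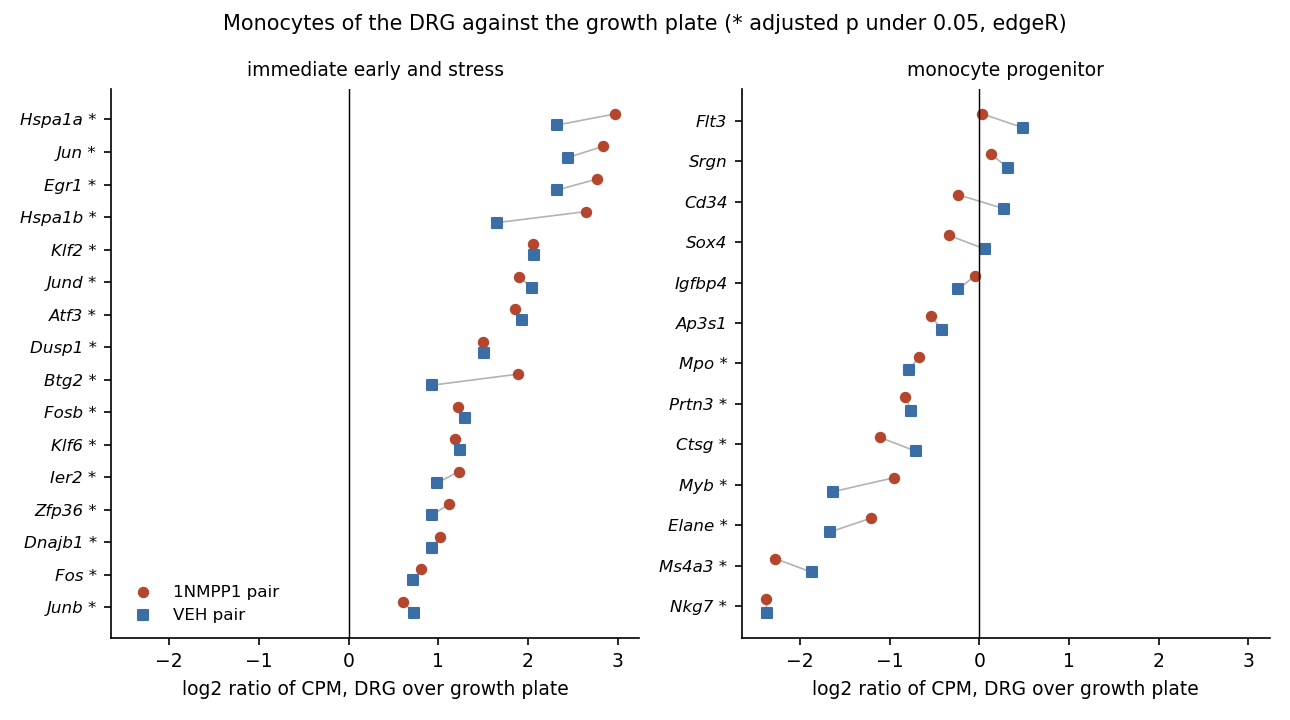
Log2 ratio of CPM, DRG over growth plate monocytes, for the immediate early and stress list on the left and the progenitor list on the right. Red circles compare the 2 libraries of 1NMPP1, blue squares those of VEH, and a star marks an edgeR adjusted p under 0.05. All 16 immediate early genes lie above 0 in both pairs, and 7 of 13 progenitor genes are starred and lie below 0.

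Over both tissues together, with tissue as a term, 1 of 6461 genes (0.0155%) passed edgeR's test for 1NMPP1 against VEH, and DESeq2 also called 1. At an unadjusted p under 0.05 there were 272 genes. The called gene, the platelet chemokine gene Pf4, does not describe ganglion monocytes. It had 0 UMIs in DRG 1NMPP1 and 1 in DRG VEH, and its 507 CPM in growth plate VEH, against 5.96 CPM in growth plate 1NMPP1, came with a single cell that held 9982 of 10095 platelet marker UMIs. No inflammatory or interferon gene passed this test.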

How the data were processed

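Single-cell RNA libraries of 2 tissues and 2 treatments were used, 1 library each. The deposited values are UMI counts per gene and barcode, made by the authors with Cell Ranger (version 7.2.0 in the file headers) on mm10, per the submitters' processing notes. No normalization had been applied. Barcodes under 200 genes or over 20% mitochondrial UMIs were set aside, and doublets were not removed. The monocyte rule was applied to single barcodes, and UMIs were summed per library and scaled to CPM. Ratios add 0.5 UMI to each sum. Intervals are 95%, Clopper-Pearson for shares and exact conditional for ratios, and cover counting error. The DRG comparison of treatments has no test, and genes needed 30 UMIs over both libraries. Tissue and treatment over both tissues were tested with edgeR 4.0.16 (R 4.3.3), quasi-likelihood, TMM, treatment and tissue as terms, a mean of at least 20 CPM and Benjamini-Hochberg adjustment, with DESeq2 1.42.0 as an alternative. On simulated counts for the tissue comparison (6437 genes) the test called 70 of 90 genes changed 2-fold, 95 of 95 changed 4-fold and 9 others. The simulation gave every gene and library the same spread and no treatment difference, so these rates may not hold for the real counts. Python 3.11.15, scipy 1.17.1 and scanpy 1.11.5 were used.

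The members and gene lists were chosen with earlier results of these data known. Named genes are the 12 highest and 12 lowest ratios with at least 60 UMIs, a UMI in at least 10% of monocytes of the higher library and at least 25% of the level in the highest comparison class, or past the test in the same direction in both library pairs, leaving out genes of mitochondria, ribosomes, hemoglobin and immunoglobulins, predicted genes, genes linked to sex and the 14 genes of the rule, plus members of the lists. Single list members given with values, the genes summed per cell, the limits of the states and the second spelling of the NF-kB motif were chosen after values had been seen. Values of some list members are not reported here. Comparison classes in the ganglia were 93 macrophages, 446 neutrophils, 548 B-lineage cells and 848 satellite glia.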

Additional observations from a re-analysis of the deposited data

Results flagged for a closer look

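Several DRG differences between 1NMPP1 and VEH had the opposite sign in growth plate monocytes, with 1 library per group in each tissue. For these the difference between tissues was not tested. The median log2 ratio of the inflammatory genes was -1.08 in the DRG and 0.18 in the growth plate. For MHC class II and dendritic genes it was -0.72 and 0.09, and for patrolling genes -0.53 and 0.03. Among single genes Mir155hg was at -2.86 in the DRG and 1.10 in the growth plate, Cxcl2 at -2.40 and 0.55, and Traf1 at -1.69 and 0.32. No group had 4 or more libraries, so single libraries were not examined for standing apart.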

How the results depend on the processing

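No paired analysis was possible because each group holds 1 library and the number 1 that they share only names it. The log2 ratio of the monocyte share was 0.13 among Ptprc barcodes and 0.12 among the 4 blood classes, and between 0.49 and 0.82 otherwise. The cycling share was 55% in 1NMPP1 and 60.3% in VEH with 1 or more cycling genes, 27.1% in 1NMPP1 when cells were thinned before they were chosen, and 70.6% in VEH among female-called cells. The 507 genes past 2-fold became 238 at 60 UMIs, 134 at 100 UMIs, 335 without cycling cells and 106 when barcodes were thinned before cells were chosen (70 and 63 cells). The 225 tissue calls became 80 at 50 CPM, 62 without the treatment term, 421 without progenitor-like cells, 71 without cells rich in markers of others and 114 among male-called cells, and leaving out a library gave 16 to 462. The single treatment call over both tissues became 5 without TMM, 7 at 5 CPM, 0 without the tissue term, 4 with thinned growth plate sums, 2 without cycling cells, 0 at 4 of 6 markers, 4 without doublets, 60 without progenitor-like cells, 8 without cells rich in markers of others, 26 among female-called and 0 among male-called cells, and leaving out a library gave 0 to 17. The cause was not tested. Directions turned for the patrolling list among female-called cells (0.016), and in those cells chosen after thinning, a change of cells as well as depth, for the MHC class II list (0.17), Cd74 (0.17), Icam1 (0.33) and Cxcl10 (0.88). Without cycling cells they turned for Gbp5 (3.0), Icam1 (0.056) and, between tissues, Tmx4 (0.31), without progenitor-like cells for Gbp5 (2.20), and among male-called cells for Isg15 (-0.16). Without cells rich in markers of others they turned between tissues for Mpo (1.64), Ctsg (1.44), Prtn3 (1.21), Elane (1.02), Ms4a3 (0.16), Tmx4 (0.14) and Hist1h1b (0.064). Turns were counted between tissues at any size, but in the DRG only for genes at least 2-fold apart and lists past a set size. Of the other single-gene and list values 1109 counted as same, 175 moved and 187, all between tissues, lost the call. DRG values have no call. For them same means near the main value, and a smaller value could change sign without being counted. Genes with under 10 UMIs in a setting gave no value there. Alternatives by progenitor content, sex call and markers of others were chosen after seeing the data. A few cells hold much of many genes' UMIs, which limits every DRG ratio.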

Other observations

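The reporter transcript tdTomato, listed among the features, had 4 UMIs in 4 monocytes of each DRG library, or 5.00% of 1NMPP1 and 5.88% of VEH monocytes. Its level of 3.38 CPM in 1NMPP1 and 2.70 CPM in VEH stood near that of B-lineage cells (2.56 and 4.70 CPM) and satellite glia (1.12 and 5.61 CPM).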
